A study of Mus musculus with 8 samples.

Results

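The genes examined here are the 10 genes of the creatine and adenylate energy buffer of muscle in soleus (SOL), with myoglobin among them: Ckm, Ckmt2, Ckb, Slc6a8, Gatm, Gamt, Ak1, Ampd1, Ampd3 and Mb. They were chosen by name, for what their products do, but with earlier results of these data known. All 10 have a row among the 24054 genes of the deposited table. The samples are SOL muscle of 8 male C57BL/6 mice on a high fat diet, with 1 stranded poly(A) RNA-seq library for each mouse. The 4 flox mice carry floxed Irf4 alleles without Cre, and the 4 MI4KO mice carry the floxed alleles with Cre driven by Myl1, a myosin light chain gene of skeletal muscle, which removes Irf4, a transcription factor of the interferon regulatory factor family, in muscle fibers. The age of the mice is not in the labels. The paper gives no diet for its RNA-seq mice. It describes its MI4KO mice on chow diet and calls studies on a high fat diet ongoing. A whole muscle also holds nuclei of endothelial, Schwann, satellite and fat cells, and their Irf4 is measured together with that of the fibers. The mice are numbered 1 to 4 in each group by ascending number in their labels. In this bulk RNA, fewer cells of a type and less RNA per cell cannot be told apart.

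Muscle uses ATP faster during contraction than any pathway can instantly remake it, and a set of near-equilibrium reactions fills the gap. Creatine kinases move a phosphate between phosphocreatine and ADP, with a cytosolic form near the myofibrils and a mitochondrial form near the site of ATP synthesis, so that creatine also carries energy across the fiber. Adenylate kinase makes ATP and AMP from ADP, and AMP deaminase removes the AMP as IMP, which enters the purine nucleotide cycle. Myoglobin holds and carries oxygen in oxidative fibers, such as those that fill the soleus.

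Since these enzymes come in families of related genes, the sequences show how far short reads can tell the members apart. In GENCODE M21 (GRCm38, which is mm10), Ckm lies on chromosome 7 from 19404776 to 19422841 on the plus strand, Ckb on chromosome 12 from 111669361 to 111672338 on the minus strand, and Ckmt2 on chromosome 13 from 91853387 to 91876885 on the minus strand. The coding sequences of Ckm and Ckb, each of 1143 bases without the stop codon, were 76.09% identical. Their longest shared stretch was 20 bases, and that of Ckm and Ckmt2 was 17 bases. Ampd1 and Ampd3 were 63.87% identical and shared 17 bases at most. Each stretch lies within 1 coding exon of its genes, and all are shorter than a read of 50 bases.
Ckm and Ckb (chr7:19414225-19414244, plus strand, and chr12:111671852-111671871, minus strand): atggccaaggtgctgacccc
Ckm and Ckmt2 (chr7:19419509-19419525, plus strand, and chr13:91859232-91859248, minus strand): aagggaggcaatatgaa
Ampd1 and Ampd3 (chr3:103091180-103091196 and chr7:110800679-110800695, both plus strand): cagaagcacctgctgcg

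Reads of 50 bases can still be shared with genes outside these families. Of the 1423 windows of 50 bases in the Ckb transcript, 312 (21.93%) also occur in another gene of the annotation, which were Ckb-ps1, Ckb-ps2 and Gm12892. For Ampd3, 35 of 4045 windows (0.8653%) are shared with Gm47282, and for the other 8 genes there were 0. The value of Ckb is therefore uncertain by however such reads were assigned.

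The regions before the start sites are shown for the creatine kinases as a description. RefSeq windows from 250 bases before to 50 bases after each start (GRCm38.p6) were found for 8 of the 10 genes, in 15 windows, and not for Ampd1 and Slc6a8. The windows were searched on both strands for an E-box (CANNTG, bound by myogenic factors), a MEF2 site, TATAAA, a CArG box, the estrogen-related receptor element TNAAGGTCA and the core of the interferon-stimulated response element, GAAA, any 2 bases and GAAA again, which interferon regulatory factors bind. An E-box was in 13 of the 15 windows, of 7 genes, against 72.31% of all 32851 promoter windows. The response element core was in 0 of the 15 windows, against 3.443% of all windows, and TNAAGGTCA was in 0, against 1.282%. A MEF2 site was in 1 window, that of Ckb, against 0.5571% of all windows, and TATAAA, which overlaps it there, was in 2 windows, of Ckb and Ak1, against 13.62%. A CArG box was in 1 window, of Ampd3, against 1.629%. Only exact letters were counted, so that tatataa in the window of Ckm is not a match to TATAAA. Bases farther than 250 before a start were not searched. Whether any of these letters bears on the level of a gene was not tested. The 250 bases before the start follow 5′ to 3′ on the strand of the gene, with every motif match in capitals, so that the 1 E-box of Ckm, the 4 of Ckmt2 and the MEF2 and TATAAA letters of Ckb stand out.
Ckm (chr7:19410844-19411093, plus strand): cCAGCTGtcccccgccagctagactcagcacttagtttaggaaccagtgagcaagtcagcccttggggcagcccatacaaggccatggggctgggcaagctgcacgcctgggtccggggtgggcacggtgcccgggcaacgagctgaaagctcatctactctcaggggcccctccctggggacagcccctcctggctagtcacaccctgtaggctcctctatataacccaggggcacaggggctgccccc
Ckmt2 (chr13:91876886-91877135, minus strand): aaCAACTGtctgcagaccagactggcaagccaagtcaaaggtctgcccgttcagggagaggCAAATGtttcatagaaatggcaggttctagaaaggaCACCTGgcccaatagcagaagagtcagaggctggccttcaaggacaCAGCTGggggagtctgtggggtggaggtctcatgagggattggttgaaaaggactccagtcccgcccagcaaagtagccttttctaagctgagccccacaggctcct
Ckb (chr12:111672339-111672588, minus strand): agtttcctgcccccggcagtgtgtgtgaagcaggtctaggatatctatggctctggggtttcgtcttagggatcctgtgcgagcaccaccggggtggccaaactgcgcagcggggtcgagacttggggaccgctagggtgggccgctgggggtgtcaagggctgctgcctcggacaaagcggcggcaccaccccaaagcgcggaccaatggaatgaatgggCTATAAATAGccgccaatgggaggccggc

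The files hold TMM-normalized CPM values, that is, reads relative to library size after the authors scaled each library by the trimmed mean of M-values on the assumption that most genes keep their level. Each value is a whole multiple of what 1 read is worth in its mouse, which gave total reads of 13417512 to 16384565 per mouse. Irf4, the targeted gene, was at 0.686, 1.46, 1.58 and 1.68 in flox mice 1 to 4 and at 0.725, 0.840, 0.266 and 1.03 in MI4KO mice 1 to 4, so that flox mouse 1 lay within the range of the MI4KO mice. Irf4 thus had a log2 fold change of -0.45 (SE 0.197, unadjusted p = 0.0402 and exact permutation p = 0.114, adjusted p = 1.0 by limma), on 4 to 23 reads. Since Irf4 lies near the added 1, this scale understates its change, which was -0.86 in edgeR and -0.87 in DESeq2 on the recovered reads, with unadjusted p values of 0.0562 and 0.0583. Myh7, the slow myosin heavy chain, was between 11079 and 14577, Myh2, that of fast oxidative fibers, between 12401 and 17110 and above Myh7 in all 8 mice, and Myh4, that of the fastest fibers, between 34.5 and 2496. The sum of 8 slow markers, 34986 to 46146, was below that of 10 fast markers, 46325 to 61943, in every mouse. In flox mouse 1, 12 of 12 liver markers were at their highest, with a sum of 187 against 6.46 to 16.4 in the other mice. In MI4KO mouse 3, 12 of 12 glucocorticoid and atrophy genes were at their highest, with a sum of 1920 against 839 to 991 in the other mice, and Fbxo32, the most abundant of them, a muscle ubiquitin ligase, was at 448 against at most 398.

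The buffer genes were among the most abundant messages of SOL. Together they held 2.75% to 3.31% of all reads on genes in each mouse. Mb, the oxygen carrier, and Ckm, the cytosolic muscle creatine kinase, were places 4 and 8 by mean value among all genes. Ckmt2, the mitochondrial creatine kinase of muscle, was place 41 and Ak1, the cytosolic adenylate kinase, place 110. At the other end, Gatm and Gamt, which make creatine in kidney, liver and other organs, stood at places 10241 and 9503, on 28 to 55 and 51 to 81 reads per mouse.

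To compare levels between genes, values were divided by coding length in kilobases. In flox mice, Mb was at 28209 ± 951 TMM-normalized CPM per kb (SD, n = 4), Ckm at 9450 ± 429, Ckmt2 at 2560 ± 207 and Ak1 at 1859 ± 66.2. A wide step below came Ampd1, the AMP deaminase of muscle, at 176 ± 13.3 per kb, Slc6a8, the creatine transporter, at 111 ± 8.10, and Ampd3, the erythrocyte form of AMP deaminase, at 33.9 ± 4.57. The lowest levels per kb were those of Ckb, the creatine kinase of brain and other tissues, at 7.68 ± 1.68, Gamt at 6.47 ± 1.63 and Gatm at 2.32 ± 0.569. Over the 8 mice, 8 of the 9 neighbors in this order had ranges that did not overlap. The exception was Ckb and Gamt, at 4.30 to 10.01 and 4.79 to 8.58 per kb. The order was the same per kb of whole transcript.

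**Figure D1:**
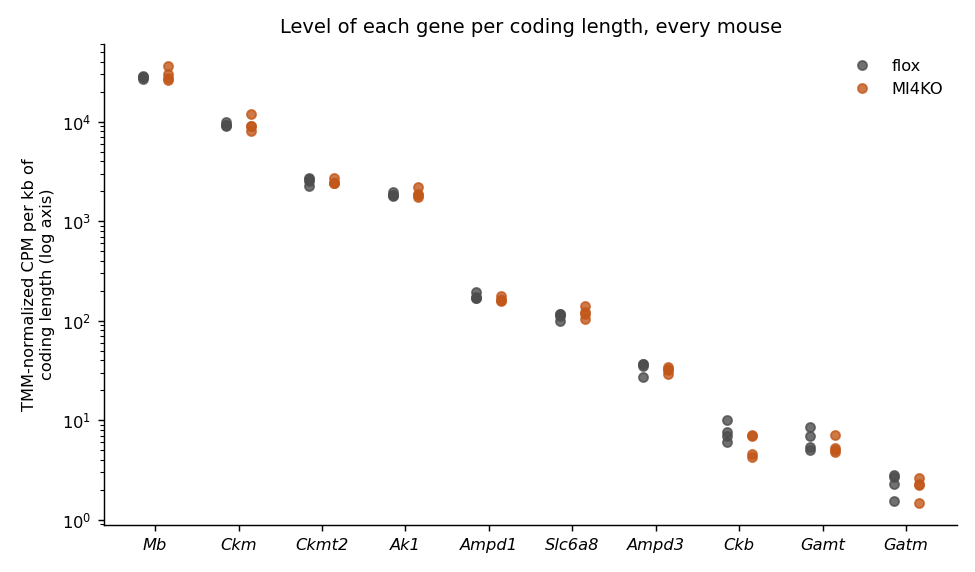
Level of each of the 10 genes in TMM-normalized CPM per kb of coding length (vertical log axis), with 1 point per mouse, flox in gray and MI4KO in orange. The genes run from Mb, at 28209 per kb on average in flox mice, to Gatm at 2.32, and within each gene the groups overlap.

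The question put to these genes was whether they differ in SOL between MI4KO and flox mice. Only the MI4KO mice carry the Myl1 Cre, so effects of this allele cannot be told apart from those of Irf4 loss. Myl1 itself had a mean of 3397 in flox and 2558 in MI4KO mice (log2 fold change -0.41, unadjusted p = 0.00135 by limma), without overlap. The study counted a gene as changed when it moved by 1.5-fold or more and its p, before adjustment, was under 0.05. With limma on log2(value + 1), 0 of the 10 members met both limits. Of the 11865 genes tested, 26 met them (0.219%), 7 of them higher in MI4KO mice (0.0590%) and 19 lower (0.160%). In edgeR and DESeq2 on the recovered reads, 65 and 51 of the 11865 genes met them, with 0 members in either. The paper's own SOL list at these limits, from edgeR, is longer, so these counts are not those of the study. All 10 members passed the filter on low values, which asks for 1 or more in 4 of the 8 mice. At a Benjamini-Hochberg adjusted p under 0.05, limma called 0 members and 0 of all genes (0%), and edgeR and DESeq2 on the recovered reads also called 0 of all genes. An unadjusted p under 0.05 was reached by 1 of 10 members, Ckb, in limma and by 0 members in edgeR or DESeq2, against 3.36% of all genes in limma. The groups overlapped for all 10 members, while 2.07% of all genes did not overlap. On the log2 scale, 4 members had a fold change above 0 and 6 below, with a median of -0.05, where 43.8% of all genes lay above 0 and their median was -0.01.

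The intervals show how much change could have been missed. For 9 of the 10 genes the 95% interval of the fold change, on the log2(value + 1) scale, lay within 1.5-fold in either direction. The exception was Ckb, with an interval from 0.589 to 0.989. The tightest were those of abundant enzymes, such as Ampd1 (0.832 to 1.04), Ckmt2 (0.855 to 1.13) and Ak1 (0.900 to 1.16). For low genes this scale understates a change. Gatm and Gamt, with flox means of 2.94 and 4.58, had lower limits of 0.732 and 0.698 on it. Their intervals therefore need not exclude a 1.5-fold change of the values themselves.

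**Figure D2:**
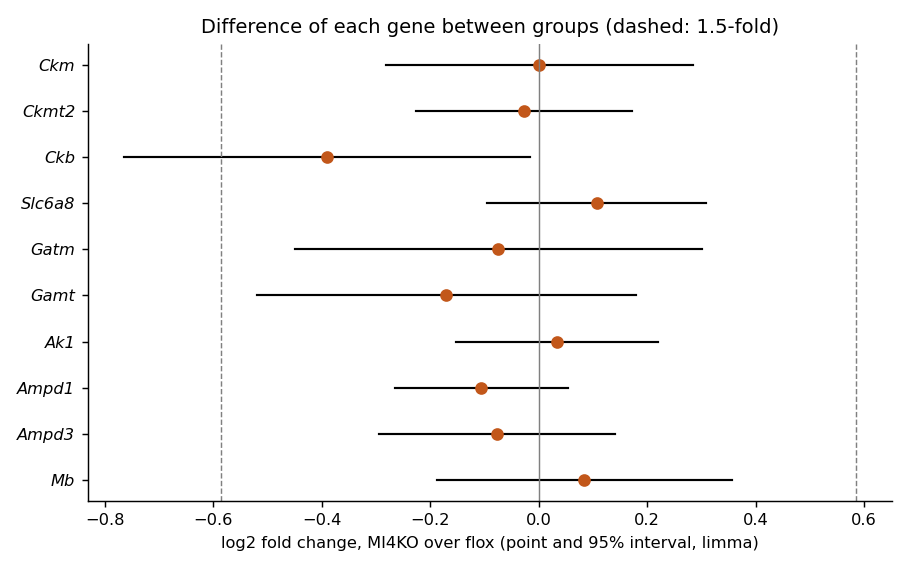
Log2 fold change of MI4KO over flox for each of the 10 genes (point) with its 95% interval from limma (line), 4 mice in each group. Dashed lines mark 1.5-fold. Ckb has the only interval that leaves out 0, from -0.76 to -0.02, and it crosses the 1.5-fold line.

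Of the creatine kinases, Ckm was at 10605, 10717, 11506 and 10379 in flox mice 1 to 4 and at 10391, 9214, 13770.5 and 10330 in MI4KO mice 1 to 4. MI4KO mouse 3 was above all flox mice and MI4KO mice 2 and 4 were below them, while the group means were 10802 ± 490 and 10926 ± 1972 (SD, n = 4). The log2 fold change of Ckm was 0.00 (SE 0.130, p = 0.992 by limma, exact two-sided permutation p = 0.971). Without MI4KO mouse 3 it was -0.12.

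Ckmt2 was at 2864, 3193, 3363 and 3453 in flox mice and at 3077, 3030, 3444 and 3070 in MI4KO mice. Flox mouse 1 was the lowest and flox mouse 4 the highest, so that the MI4KO values lay within the flox range. Its log2 fold change was -0.03 (SE 0.0915, p = 0.774 by limma, exact permutation p = 0.714).

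Ckb was at 7.98, 6.94, 8.78 and 11.4 in flox mice and at 5.22, 8.02, 4.92 and 7.86 in MI4KO mice. MI4KO mice 1 and 3 were below all flox mice, and MI4KO mice 2 and 4 lay within the flox range. The means were 8.78 ± 1.92 and 6.50 ± 1.66 (SD, n = 4), a log2 fold change of -0.39 (SE 0.172, unadjusted p = 0.0423, adjusted p = 1.0 by limma). Permuting the mice between the groups gave an exact two-sided p = 0.171, where the design allows no p below 0.0286. The limma p of Ckb rose above 0.05 without flox mouse 1, 3 or 4 or without MI4KO mouse 1 or 3, to between 0.0504 and 0.144. The log2 difference of Ckb was -0.26 among the mice of the lower number range in the labels (flox mouse 1, MI4KO mice 1 and 2) and -0.45 among the other 5, of the higher range.

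Since Ckb is the creatine kinase of many cells other than muscle fibers, the markers of such cells are given beside it. The sum of 5 smooth muscle markers spanned 247 to 282 in flox mice and 178 to 302 in MI4KO mice, with 5 of 5 lower on average in MI4KO. The sum of 6 endothelial markers spanned 338 to 415 in flox mice and 258 to 361 in MI4KO mice, with 6 of 6 lower on average, and Cdh5, the most abundant, an endothelial cadherin, was at 113 to 139 and 82.0 to 121. For 6 Schwann cell markers the sums were 97.5 to 135 and 92.2 to 111, and 4 of 6 were lower on average. The sums were 149 to 230 and 111 to 212 for 6 tendon and fibroblast markers, 28.4 to 39.2 and 10.7 to 47.2 for 6 adipocyte markers, with 5 of 6 lower on average in each list, and 21.9 to 28.1 and 21.6 to 27.3 for 5 macrophage markers, with 1 of 5 lower. No marker of these 6 lists was at 0 in any mouse. Exact permutation p values for the sums of these lists ran from 0.114 (endothelial) to 0.743 (macrophage). Over all genes tested, 43.8% had a log2 fold change above 0, so that lower means in MI4KO were common. MI4KO mouse 3 had the highest smooth muscle sum, 302, and the lowest Ckb, 4.92. MI4KO mouse 1 had the lowest smooth muscle sum, 178, with Ckb at 5.22. The part of these cell markers in the difference of Ckb was not tested.

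Ckmt1, the mitochondrial creatine kinase of other tissues, was at most 0.145 in any mouse and was not tested. By level per kb of coding length, Ckm made 78.6% ± 1.46 of the 4 creatine kinase messages in flox mice and 79.0% ± 1.86 in MI4KO mice (SD, n = 4), Ckmt2 21.3% ± 1.45 and 20.998% ± 1.85, and Ckb 0.0640% ± 0.0144 and 0.0489% ± 0.0175. These shares depend on the length used. Per kb of whole transcript, the flox means were 3939 for Ckm, 2166 for Ckmt2 and 5.97 for Ckb, which gives Ckmt2 a larger share. In each mouse there were 907 to 2799 reads of Ckm for each read of Ckb, with the lowest number in flox mouse 4 and the highest in MI4KO mouse 3.

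**Figure D3:**
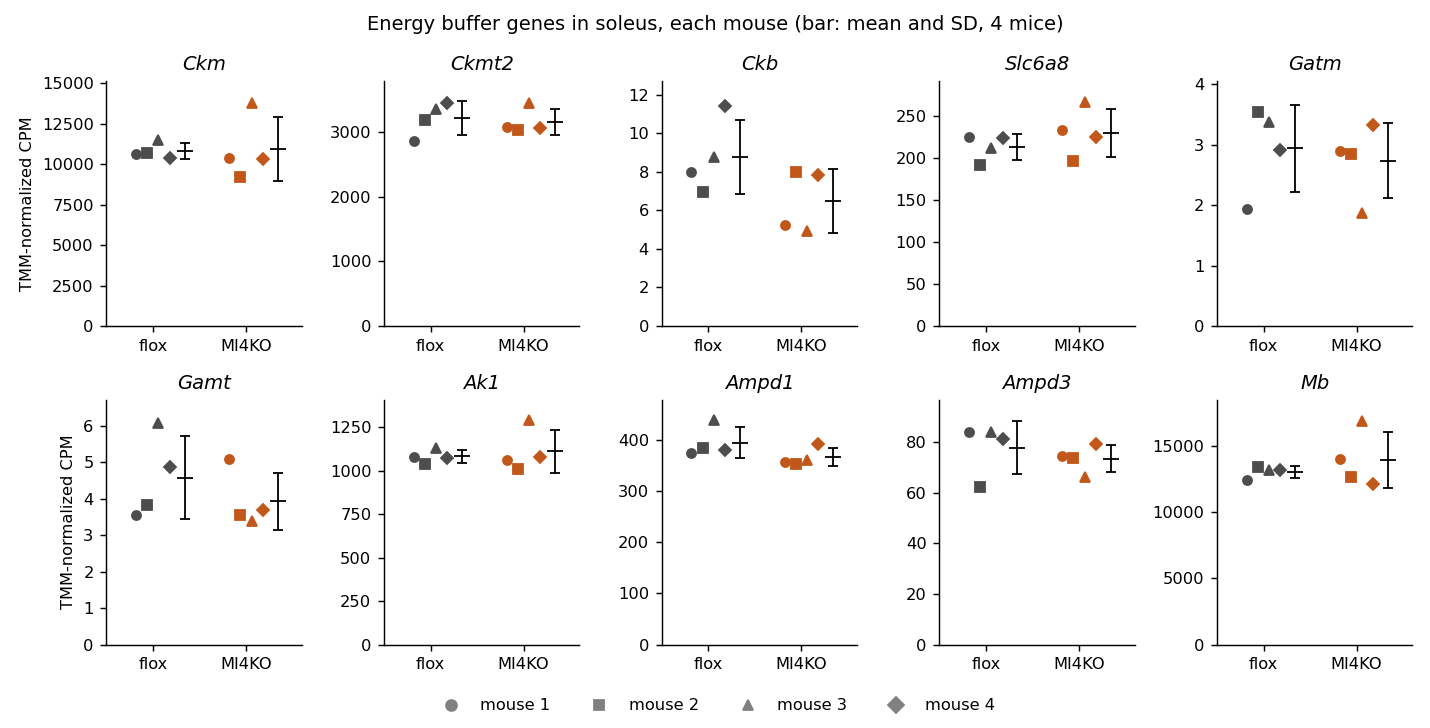
TMM-normalized CPM of each of the 10 genes in every mouse, with a panel and a vertical axis from 0 for each gene, flox in gray and MI4KO in orange, and the marker shape giving the mouse. Bars show the mean and SD of 4 mice. MI4KO mouse 3 (triangle) is the highest point for Ckm, Slc6a8, Ak1 and Mb and the lowest for Ckb, Gatm and Gamt.

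Muscle fibers take creatine up from blood through Slc6a8 (chromosome X, 73673150 to 73682502, plus strand). The transporter was at 224, 191, 212 and 223 in flox mice and at 232, 196, 266 and 224 in MI4KO mice. MI4KO mouse 3 was the highest of all, and the other 3 MI4KO mice stood within 196 to 232. Its log2 fold change was 0.11 (SE 0.0928, p = 0.272 by limma, exact permutation p = 0.314). It was 0.15 after scaling to the library sum, with an unadjusted p of 0.0392, but 0.03 without MI4KO mouse 3, 0.06 without flox mouse 2 and 0.18 without MI4KO mouse 2, with unadjusted p values of 0.677, 0.574 and 0.0678.

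Gatm, which joins arginine and glycine to make guanidinoacetate, was at 1.93, 3.54, 3.38 and 2.91 in flox mice and at 2.90, 2.84, 1.86 and 3.32 in MI4KO mice. Gamt, which methylates that product to creatine, was at 3.55, 3.82, 6.08 and 4.88 in flox mice and at 5.08, 3.56, 3.39 and 3.69 in MI4KO mice. Flox mouse 1 and MI4KO mouse 3 were the lowest mice of their groups for both enzymes. Flox mouse 1 is also the mouse with liver transcripts, and their part in the values of Gatm and Gamt was not tested. The log2 fold changes were -0.07 for Gatm (SE 0.173, p = 0.675 by limma, exact permutation p = 0.514) and -0.17 for Gamt (SE 0.161, p = 0.311 by limma, exact permutation p = 0.371). For Gamt it ran from -0.28 without MI4KO mouse 1 to -0.05 without flox mouse 3, and it was -0.26 without flox mouse 1. Slc16a12, also a creatine transporter, was at 1.32 ± 0.321 in flox mice (SD, n = 4) and was the lowest of the 4 genes of creatine transport and synthesis by fold change, at -0.22 on the log2 scale (SE 0.200, unadjusted p = 0.297, adjusted p = 1.0 by limma).

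Ak1, which pairs 2 ADP into ATP and AMP, was at 1079, 1041, 1134 and 1075 in flox mice and at 1065, 1011, 1290 and 1081 in MI4KO mice. The values of 7 mice lay between 1011 and 1134, with MI4KO mouse 3 above them. Its log2 fold change was 0.03 (SE 0.0858, p = 0.702 by limma, exact permutation p = 0.8286). Of 9 adenylate kinase genes listed, 8 had a row and 5 were tested, with 0 past the limits and a median log2 fold change of 0.03. The lowest was Ak4, a mitochondrial matrix form, at -0.17 (SE 0.134). Per kb of coding length, Ak1 made 92.8% ± 0.412 of the 8 adenylate kinase messages in flox mice and 92.9% ± 0.380 in MI4KO mice (SD, n = 4). This share also depends on the length used.

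AMP deaminase is the entry to the purine nucleotide cycle. Ampd1 was at 375, 384, 438 and 379 in flox mice and at 357, 353, 360 and 392 in MI4KO mice, with 3 of 4 MI4KO mice below all flox mice and MI4KO mouse 4 above 3 of them. Its log2 fold change was -0.11 (SE 0.0736, p = 0.176 by limma, exact permutation p = 0.114). It was -0.05 without flox mouse 3 and -0.06 after scaling to the library sum. Ampd3 was at 84.2, 62.3, 84.0 and 81.3 in flox mice and at 74.5, 73.8, 66.4 and 79.2 in MI4KO mice. Flox mouse 2 was the lowest of all, the other 3 flox mice were above every MI4KO mouse, and the log2 fold change was -0.08 (SE 0.1003, p = 0.463 by limma, exact permutation p = 0.543). Without flox mouse 2 it was -0.18, with an unadjusted p of 0.0452, while it was -0.03 without MI4KO mouse 3 and after scaling to the library sum, and -0.04 without flox mouse 1 or 3. The sum of 9 red blood cell markers spanned 412 to 599 in flox mice and 378 to 471 in MI4KO mice, with 8 of 9 lower on average in MI4KO. The exact permutation p of this sum was 0.229, and 43.8% of all genes had a log2 fold change above 0. Hbb-b2 and Hbb-bt had the same means and ranges, so that they count as 1 measurement entered 2 times. Hbb-bs was at 0 in 4 mice, and 2 of the 9 markers were under 1 in every mouse. Flox mouse 2, the lowest in Ampd3, had a sum of 598, and flox mouse 3, with Ampd3 at 84.0, had 599. The part of these markers in Ampd3 was not tested.

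The cycle has 2 further steps. Adssl1, the muscle adenylosuccinate synthase, was at 739 ± 23.6 per kb in flox mice and Adsl, adenylosuccinate lyase, at 118 ± 5.36 (SD, n = 4), and their log2 fold changes were 0.01 (SE 0.0776) and 0.01 (SE 0.0871). Of the 6 genes of the cycle, all tested, 0 passed the limits. The lowest log2 fold change was that of Ampd2, the AMP deaminase of liver and other tissues, at -0.22 (SE 0.155), and the highest that of Adss, the adenylosuccinate synthase of other tissues, at 0.10 (SE 0.117). Ampd1 made 83.3% ± 1.85 of the 3 AMP deaminase messages per kb of coding length in flox mice and 83.1% ± 0.803 in MI4KO mice (SD, n = 4), and Ampd3 most of the rest, at 16.0% ± 1.91 and 16.2% ± 0.792. Per kb of whole transcript, the flox means were 168 for Ampd1 and 19.0 for Ampd3, so that these shares depend on the length too.

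Mb (chromosome 15, 77015487 to 77050670, minus strand) was at 12400, 13416, 13155 and 13161 in flox mice and at 14046, 12618, 16878 and 12154 in MI4KO mice. The MI4KO mice held both the highest and the lowest value. The log2 fold change was 0.08 (SE 0.125, p = 0.515 by limma, exact permutation p = 0.571), and it was -0.01 without MI4KO mouse 3. Of the 2 other globins listed, Ngb was not tested and Cygb, a globin of fibroblasts and other cells, had a log2 fold change of -0.29 (SE 0.194, unadjusted p = 0.157, adjusted p = 1.0 by limma).

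Ratios within a mouse do not depend on how its library was scaled. The 5 ratios below were compared by exact two-sided permutation tests. The log2 ratio of Ckmt2 to Ckm was -1.75 ± 0.124 in flox and -1.78 ± 0.164 in MI4KO mice (SD, n = 4; exact p = 0.80), and that of Mb to Ckm was 0.27 ± 0.0731 and 0.35 ± 0.107 (exact p = 0.257). For Ckb to Ckm it was -10.29 ± 0.326 and -10.73 ± 0.585 (exact p = 0.257), for Ampd3 to Ampd1 -2.35 ± 0.209 and -2.32 ± 0.0854 (exact p = 0.857), and for Gatm to Gamt -0.64 ± 0.362 and -0.54 ± 0.355 (exact p = 0.80). Adjusted over the 5, the lowest p was 0.643. These tests did not separate the groups.

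Within the MI4KO group, mouse 3 stood at an end of the range for most of the genes. It was the highest mouse for 4 genes (Ckm, Slc6a8, Ak1 and Mb) and the lowest for 3 (Ckb, Gatm and Gamt). After scaling to the library sum, it was the highest for 4 genes and the lowest for 5. The TMM scale of this mouse lies 0.12 above the library sum on the log2 scale and that of MI4KO mouse 2 lies 0.12 below. The coefficient of variation over 8 mice fell from 12.3% to 7.45% for Ckm, from 11.1% to 8.52% for Mb and from 7.81% to 3.88% for Ak1 when the library sum was used, while it was 27.0% and 26.9% for Ckb and 22.3% and 24.2% for Gatm. The part of the glucocorticoid and atrophy genes of MI4KO mouse 3 in these values was not tested.

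**Figure D4:**
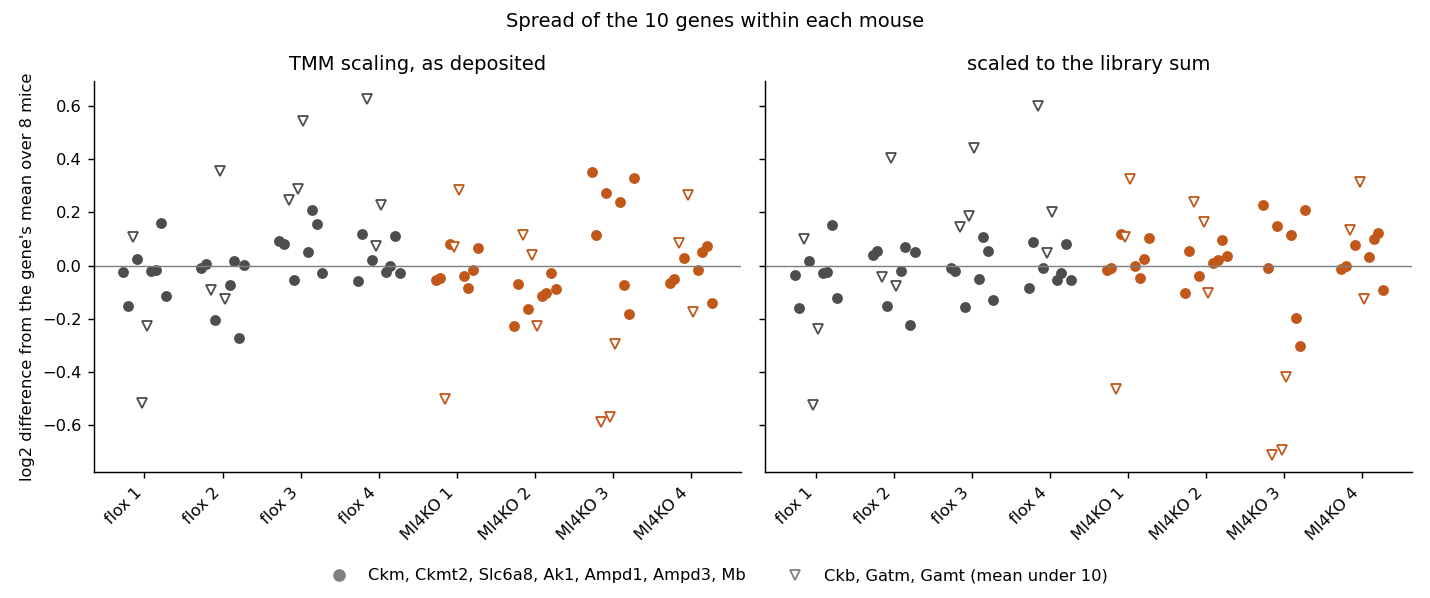
Log2 difference of each of the 10 genes from its own mean over 8 mice (vertical axis) in each mouse, as deposited (left) and scaled to the library sum (right). Filled circles are the 7 more abundant genes and open triangles are Ckb, Gatm and Gamt, and MI4KO mouse 3 has the widest spread in both panels.

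Soleus holds slow and fast fibers, and the members were set against markers of both. For each mouse the mean log2 level of 8 slow markers was subtracted from that of 10 fast markers, and the difference ran from -1.74 in flox mouse 4 to -0.22 in MI4KO mouse 4. Scarce markers weigh as much as abundant ones in this mean. Myh4 (34.5 to 2496) and Actn3 (23.8 to 334) spanned far more over the mice than Myh2 (12401 to 17110). MI4KO mouse 3, with the highest sum of fast markers (61943), had a difference of -1.09. The relations below therefore need not follow the share of slow and fast fibers. Over the 8 mice, the strongest relations were negative, with Gamt (Pearson r = -0.72, exact permutation p = 0.0487, adjusted p = 0.455 over 10 genes, Spearman rho = -0.50, exact permutation p = 0.216, adjusted p = 0.817) and Ckmt2 (r = -0.65, exact permutation p = 0.0909, adjusted p = 0.455, rho = -0.64, exact permutation p = 0.0962, adjusted p = 0.817). Without the 2 mice farthest from the median of the marker difference, flox mouse 4 and MI4KO mouse 4, r was -0.74 for Gamt and -0.52 for Ckmt2. After subtracting group means the r values were -0.72 and -0.64, and with slow markers alone they were -0.78 and -0.30. The other 8 genes had r between -0.31 and -0.02, and no relation passed an adjusted p of 0.05.

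The genes most like 4 of the members in pattern over the 8 mice were sought among 7338 other genes whose mean value was 10 or more, by Pearson r of log2(value + 1), as a description. For Ckm they were Hnrnpab (r = 0.99), Rpl3l (0.98) and Slc44a2 (0.98), and among the members Ak1 (0.96) and Mb (0.82). For Mb they were Bsg (0.99), Ndufb5 (0.98) and Prdx1 (0.98). For Ckmt2 they were Ddx41 (0.97), Sac3d1 (0.96) and Fam162a (0.94), and for Ampd1 they were Syt11, Pmp22 and Vcl (0.93 each). MI4KO mouse 3 is the highest mouse for both Ckm and Mb, and all r values share the scaling of each library.

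The neighboring reactions were described by lists of genes. Of the 46 listed genes outside the 10, 45 had a row and 33 were tested. Of these 33, 0 passed the limits in either direction, against 0.219% of all genes. An unadjusted p under 0.05 in limma was reached by 0, against 3.36% of all genes. The groups did not overlap for 0, against 2.07% of all genes. With 33 genes, counts of 0 are near these shares. The median log2 fold change of the 33 genes was 0.01, against -0.01 over all genes. Of 13 tested genes of nucleotide breakdown and salvage, the lowest was Nt5c, a cytosolic nucleotidase, at -0.33 (SE 0.162, unadjusted p = 0.0640, adjusted p = 1.0 by limma), and the highest Pnp, purine nucleoside phosphorylase, at 0.12 (SE 0.219). Of 5 nucleoside diphosphate kinases tested, which pass phosphate from ATP to other nucleotides, Nme3 was the lowest at -0.14 (SE 0.157) and Nme1 the highest at 0.11 (SE 0.0846). All 5 tested genes of mitochondrial ATP export had a fold change above 0, from Slc25a4, the ADP/ATP carrier of muscle, at 0.02 (SE 0.105) to Slc25a5, the carrier of other tissues, at 0.16 (SE 0.117), with none past the test, where 43.8% of all genes lay above 0. MI4KO mouse 3 was the highest mouse for all 5, and without it their log2 fold changes were between -0.06 (Slc25a4) and 0.02 (Slc25a5).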

How the data were processed

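RNA-seq values of SOL from 4 flox and 4 MI4KO mice were analysed. According to the paper's methods and the submitters' processing notes, the authors sequenced stranded mRNA libraries in single 50-base reads, used bcl2fastq 2.17, Bowtie2 2.1.0 and RSEM 1.2.15 with mm10, and applied TMM. They deposited 1 signal value for each gene and mouse, a CPM scaled by TMM. The authors' own fold-change score, p-value and FDR columns, from edgeR, were not used. Dividing by the value of 1 read gave whole reads for 100% of the non-zero values (tolerance 0.01 read), and 3 reads correspond to 0.181 to 0.225. Depth covers counting error only.

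The design took the values as normalized: limma 3.58.1 (R 4.3.3) with a trend was run on log2(value + 1) for genes at 1 or more in at least 4 of 8 mice, and Benjamini-Hochberg adjustment was over all 11865 genes. edgeR 4.0.16 and DESeq2 1.42.0 on recovered reads, other scalings, filters and pseudocounts, the mouse number range as a covariate and each mouse left out were alternatives. Exact permutation tests used numpy 2.4.6 and scipy 1.17.1 for ranks.

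The members and lists were chosen with earlier results of these data known. The named genes are the 10 members, Irf4, the highest and lowest gene by fold change in each list, any list gene past the limits, the 3 genes most like Ckm, Ckmt2, Ampd1 and Mb, and the most abundant gene of a marker list that moved with a member. Adssl1, Adsl, Ngb, Ckmt1, Hbb-bs, Myl1, Actn3, Myh7, Myh2 and Myh4, and in the closing section the genes whose levels are given there, were added after their values were seen. Ak9, Ly6g and Adgre1 were not analysed here, and some genes are not reported here. Sequences and positions are from GENCODE M21 (GRCm38) and RefSeq (GRCm38.p6). Scripts were tested on simulated data.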

Additional observations from a re-analysis of the deposited data

Results flagged for a closer look

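In groups of 4 mice, a mouse was noted when its gap to the nearest other mouse exceeded Dixon's critical share of the group's range. Among 32 groups examined (10 genes, Irf4 and 5 ratios in each of the 2 groups), 3 were noted, where chance gives about 1 in 20. Ckmt2 in MI4KO mouse 3, at 3444, stood above the other MI4KO mice, and its log2 fold change ranged from -0.08 to 0.01 as each mouse was left out. Ampd1 in flox mouse 3, at 438, stood above the other flox mice, and its log2 fold change ranged from -0.14 to -0.05. Ampd3 in flox mouse 2, at 62.3, stood below the other flox mice, and its log2 fold change was -0.18 without that mouse against -0.08 with it.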

How the results depend on the processing

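The counts of members and of pathway genes past the limits were 0 under every alternative run. The count of members with an unadjusted p under 0.05, which was 1 (Ckb), was 0 with no filter, median-of-ratios scaling, no trend, edgeR, DESeq2 and the mouse number range as a covariate, 1 with library-sum scaling (Slc6a8 in place of Ckb), and between 0 and 2 as each mouse was left out. The p of Ckb was 0.0422 with a pseudocount of 0.5, 0.0373 with robust estimation, 0.0630 with no filter, 0.0649 with median-of-ratios scaling, 0.0967 with library-sum scaling, 0.0503 with no trend, 0.0808 with edgeR, 0.0643 with DESeq2 and 0.0564 with the covariate. Its log2 fold change stayed below 0, between -0.49 and -0.27 as each mouse was left out. Its p was 0.144 without flox mouse 4, 0.115 without MI4KO mouse 1, 0.109 without MI4KO mouse 3, 0.0766 without flox mouse 3 and 0.0504 without flox mouse 1. The log2 fold change of Irf4 was -0.61 with a pseudocount of 0.5 (unadjusted p = 0.0424 by limma). It was -0.45 with no filter, no trend and robust estimation, with unadjusted limma p values of 0.0316, 0.0277 and 0.0332. It was -0.44 (median-of-ratios), -0.42 (library sum), -0.86 (edgeR), -0.87 (DESeq2) and -0.41 (covariate), with unadjusted p values from 0.0507 to 0.0706 for these 5. Left out in turn, flox mouse 1 and MI4KO mice 1, 2 and 3 gave -0.60 to -0.31. The unadjusted limma p was 0.00782 without flox mouse 1 and 0.0462 without MI4KO mouse 2. It was 0.0588 without MI4KO mouse 1 and 0.119 without MI4KO mouse 3. Without flox mouse 2, 3 or 4 or MI4KO mouse 4, Irf4 failed the filter on low values and has no value. The causes were not tested.

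The sign of small log2 fold changes turned in places. Ckmt2 was 0.0175 by library sum, 0.0096 with the covariate and 0.0082 without flox mouse 4. As each mouse was left out, Ckm ranged from -0.12 to 0.078, Ckmt2 from -0.082 to 0.0082, Gatm from -0.21 to 0.048, Ak1 from -0.040 to 0.077 and Mb from -0.012 to 0.15. Among ratios, MI4KO minus flox was 0.21 for Ckmt2 to Ckm and -0.10 for Ampd3 to Ampd1 in the mice of the lower number range, and -0.022 for Mb to Ckm in those of the higher range. As each mouse was left out, the differences ranged from -0.086 to 0.046 (Ckmt2 to Ckm), -0.64 to -0.21 (Ckb to Ckm), -0.064 to 0.093 (Ampd3 to Ampd1), 0.050 to 0.12 (Mb to Ckm) and -0.020 to 0.29 (Gatm to Gamt). Of the fiber marker relations, r was 0.012 for Gatm after subtracting group means, 0.0027 for Slc6a8 with slow markers alone, 0.072 for Ckb without the 2 farthest mice, and 0.033 for Gatm and 0.040 for Ampd1 with median-of-ratios scaling. Over all alternatives, 283 values kept their direction and side of the threshold, 23 turned sign, 19 lost an unadjusted p under 0.05, 2 gained it and 12 counts moved. No paired analysis was possible because the labels give each mouse its own number and the groups share none. Gatm and Gamt, with 28 to 81 reads a mouse, are limited by depth.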

Other observations

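Among the genes around the buffer, the ADP/ATP carriers were led by their muscle form. In flox mice, Slc25a4, the ADP/ATP carrier of muscle and heart, was at 6220 ± 217 per kb of coding length against 83.2 ± 2.93 for Slc25a5 (SD, n = 4), and Slc25a31, the testis form, was at most 0.0750 TMM-normalized CPM in any mouse. Vdac1, Vdac2 and Vdac3, the channels of the outer mitochondrial membrane, were at 1750 ± 93.5, 304 ± 5.64 and 504 ± 13.6 per kb. Nme2, at 970 ± 32.5 per kb, led the nucleoside diphosphate kinases, with Nme1 at 108 ± 10.2.

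Enzymes of purine breakdown and salvage stood below Ampd1, at 176 ± 13.3 per kb. Adk, which turns adenosine back into AMP, was at 93.7 ± 6.44 per kb in flox mice (SD, n = 4), while Ada, adenosine deaminase, was at 0.446 ± 0.114. Hprt and Aprt, the purine salvage enzymes, were at 39.0 ± 2.98 and 38.9 ± 3.62 per kb, and Nt5c1a, the muscle AMP nucleotidase, at 4.57 ± 0.913. Xdh, xanthine dehydrogenase, was at 10.01 ± 0.939 per kb in flox mice. Its means were 40.1 ± 3.76 TMM-normalized CPM in flox mice and 40.1 ± 15.1 in MI4KO mice. The ranges were 36.8 to 44.5 and 25.7 to 61.3, with the highest value in MI4KO mouse 3.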
